A study of Mus musculus with 12 samples.

Results

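Oosp1, Rfpl4, Oas1d, Oas1c and Uchl1 are 5 genes whose transcripts are abundant in mouse oocytes. They were taken by symbol from the 23235 genes of a table of polysome-bound RNA, that is, mRNA recovered with ribosomes, and all 5 were found and passed the filter on low values. The Cnot6l-/- (KO) and wild-type (WT) oocytes came from C57BL/6 mice at postnatal day 21. Oocytes at the germinal vesicle (GV) stage were collected 48 h after PMSG, a gonadotropin that makes follicles grow. Oocytes at the MI and MII stages were collected after 8 h and 16 h of culture. Each of the 6 groups (KO and WT at GV, MI and MII) had 2 libraries, 12 in all. The labels say neither which part of Cnot6l was deleted nor whether the replicates were separate pools of oocytes, so p-values measure the spread between these libraries, which may be technical.

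A growing oocyte stores large amounts of mRNA, stops transcribing before maturation, and then runs on what it has stored. During maturation some stored transcripts gain longer poly(A) tails and are recruited to ribosomes, while others lose their tails and are degraded. Cnot6l encodes a catalytic deadenylase subunit of CCR4-NOT, the complex that shortens poly(A) tails. The label under which the 5 genes were grouped calls them oocyte-restricted. All libraries are from oocytes, so tissue restriction could not be checked here, and Uchl1 is also well known as an abundant protein of neurons. Their roles fall into 3 kinds. Oosp1 encodes a secreted protein related to placenta-specific protein 1. Rfpl4 and Uchl1 belong to the ubiquitin system, as a RING finger-like protein and a ubiquitin C-terminal hydrolase. Oas1d and Oas1c belong to the oligoadenylate synthetase family, whose enzymatically active members sense double-stranded RNA in the interferon response. Mouse Oas1d is reported to lack that enzymatic activity.

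The 3′ ends of the transcripts are shown because poly(A) tails are lengthened through sequence elements in this region. Capitals mark a polyadenylation signal (AATAAA or ATTAAA) or a cytoplasmic polyadenylation element (TTTTAT or TTTTAAT). The sequences are on the transcript strand of the NCBIM37 genome, the build of the deposited coordinates, and each lies in the 3′ UTR part of the last exon in the GENCODE annotation of that build.
Oosp1, chr19:11742044-11742073, minus strand: ctgcTTTTAATtgtataaaatctgATTAAA
Rfpl4, chr7:5061509-5061538, minus strand: tgctttcctTTTTATttgctataatattag
Uchl1, chr5:67078423-67078452, plus strand: gtttgtctagtccttaagaggaagAATAAA
Oas1d, chr5:121371608-121371637, plus strand: tgtgtatgagatttgaagcactaaATTAAA
Oas1c, chr5:121250230-121250259, minus strand: tgagggtgagatttgaagcactgaATTAAA
Searched on the transcript strand within its last 150 bases, Oosp1 held a TTTTAAT that starts 120 bases from the 3′ end, and Rfpl4 held a TTTTAT that starts 141 bases from it. Oas1d, Oas1c and Uchl1 held neither form there. Of 16078 annotated genes, 18.7% held TTTTAT, 6.7% held TTTTAAT and 23.6% held at least 1 of them in that window. All 5 transcripts held AATAAA or ATTAAA, as did 81.1% of genes, and none held the AU-rich motif TATTTA, which 13.5% held. The coding sequences of Oas1d and Oas1c were 85.3% identical, and each was closer still to Oas1e (89.4% for Oas1d and 86.2% for Oas1c). A match is a description of these letters and not evidence of a working site.

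Values are FPKM (fragments per kilobase of transcript, relative to the size of the library) as deposited. Their sums per library ran from 884142 to 1663871, and no external standard is given. The median log2 difference of all tested genes between KO and WT was 1.03 at MI and 0.81 at MII. Member differences are therefore given as deposited and again with median scaling, in which each library is divided by its median ratio to the other libraries. That ratio was taken over genes above 0 in every library. With this scaling the median of all tested genes was still 0.21 at MI and 0.41 at MII. In these bulk libraries, fewer oocytes and less RNA per oocyte cannot be told apart. The targeted gene, Cnot6l, had 6.28 to 23.5 FPKM in KO libraries and 16.1 to 68.5 FPKM in WT libraries, with overlap between the genotypes at GV. The 12 oocyte markers summed to 21396 FPKM or more in every library. The 15 cumulus and granulosa markers, 2 of them at 0 throughout (Foxl2 and Lhcgr), summed to 158 to 228 FPKM in KO GV libraries and 307 to 348 in WT GV libraries. They summed to 157 to 194 in KO MI, 134 to 151 in WT MI, 83.6 to 127 in KO MII and 59.9 to 71.6 in WT MII libraries. Single markers differed in direction: at MI Cyp19a1 averaged 96.4 FPKM in KO and 34.7 in WT, and Ptx3 7.43 and 36.2. Of 11 tested, 1 was called higher (27.9% of all tested genes) and 2 lower (0.463%) in KO at MI as deposited. At MII 2 were called higher (25.4%) and 2 lower (3.2%). The 11 theca, stroma, endothelium and blood markers, with Cyp17a1, Col1a1, Col1a2, Cdh5 and Ptprc at 0 throughout, summed to at most 81.0 FPKM. The part of these other cells in any result below was not tested.

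The 5 transcripts together held 0.974% to 2.71% of the summed FPKM of a library, a quantity that no single factor per library can change. They held 0.974% and 1.01% of the total in KO GV libraries, against 1.51% and 1.45% in WT GV libraries. They held 2.15% and 2.21% in KO MI libraries, against 2.63% and 2.52% in WT MI libraries. They held 2.18% and 2.19% in KO MII libraries, against 2.66% and 2.71% in WT MII libraries. The share was thus lower in both KO libraries than in both WT libraries at each stage, and higher at MI and MII than at GV in both genotypes. No test was made on these shares.

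**Figure D1:**
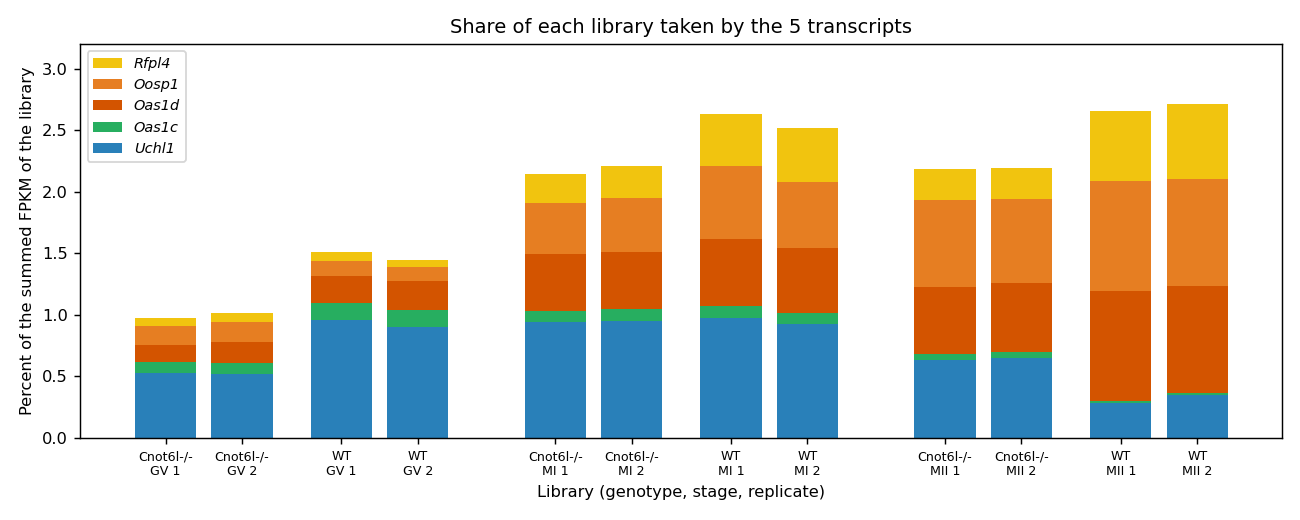
Share of each library's summed FPKM (percent, vertical axis) held by Oosp1, Rfpl4, Oas1d, Oas1c and Uchl1, stacked, with KO libraries left of WT libraries at GV, MI and MII. Uchl1 fills most of the bar at GV, and the WT MII bars (2.66% and 2.71%) consist mostly of Oosp1, Oas1d and Rfpl4.

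The make-up of this share differed between groups. Among all 23235 genes, Uchl1 had rank 14 and rank 12 in the KO GV libraries and rank 6 in both WT GV libraries. At MII it had rank 17 in both KO libraries, against rank 39 and rank 33 in the WT libraries. Oosp1 had rank 67 and rank 59 in KO GV libraries, against rank 104 and rank 109 in WT GV libraries. At MII Oosp1 had rank 14 and rank 15 in KO libraries and rank 11 and rank 12 in WT libraries. Oas1c was the member that left the most abundant transcripts at MII. It had rank 155 and rank 162 in KO GV libraries and rank 84 and rank 75 in WT GV libraries, but rank 323 and rank 282 in KO MII libraries and rank 979 and rank 1024 in WT MII libraries.

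Oosp1, the oocyte-secreted protein transcript, was recovered with polysomes at its highest level at MII and its lowest at GV in both genotypes. It had 1594 and 1738 FPKM in KO GV libraries and 1480 and 1457 FPKM in WT GV libraries. Its MI level was 6751 and 7296 FPKM in KO libraries and 6233 and 5721 FPKM in WT libraries. At MII it had 8571 and 8214 FPKM in KO libraries and 7941 and 7652 FPKM in WT libraries. No library of a later stage overlapped one of an earlier stage within a genotype, and the KO libraries lay above the WT libraries at each stage on the deposited scale. The MII mean was 5.04 times the GV mean in KO oocytes and 5.31 times in WT oocytes. MI minus GV was 2.08 in KO and 2.02 in WT on the log2 scale (limma SE 0.0622, adjusted p 8.01e-09 and 3.11e-08). Oosp1 also rose between MI and MII, by 0.26 in KO (adjusted p 0.0338) and by 0.38 in WT (adjusted p 0.00154). The KO call between MI and MII was lost on leaving out either library of KO MI, KO MII or WT GV (adjusted p 0.0576 to 0.258).

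Rfpl4 encodes a RING finger-like protein that in mouse is reported to bind components of the proteasome and ubiquitin conjugation machinery and cyclin B1. It had 729 and 763 FPKM in KO GV libraries and 996 and 738 FPKM in WT GV libraries, which overlapped. At MI it had 3903 and 4312 FPKM in KO libraries, just below the 4352 and 4639 FPKM of WT libraries. At MII the genotypes stood apart, with 3060 and 3064 FPKM in KO libraries and 5089 and 5383 FPKM in WT libraries. Rfpl4 rose between GV and MI by 2.46 in KO and 2.39 in WT on the log2 scale (limma SE 0.116, adjusted p 2.42e-07 and 6.76e-07). MII minus MI was -0.42 in KO (adjusted p 0.0548) and 0.22 in WT (adjusted p 0.221). The KO value passed the threshold without WT GV replicate 1 (0.00994) or 2 (0.00983), or without WT MII replicate 1 (0.0476) or 2 (0.0479). A fit of the KO MI and KO MII groups alone called it too (limma adjusted p 0.0352). The sign of the KO value turned with median scaling, to 0.16 (adjusted p 0.777). The WT value was then called, at 0.44 (adjusted p 0.0205). The ratio of Rfpl4 to Oosp1 within a library, which no single factor per library changes, was 0.457 and 0.439 in KO GV libraries and 0.673 and 0.506 in WT GV libraries. It was 0.578 and 0.591 in KO MI libraries and 0.698 and 0.811 in WT MI libraries. It was 0.357 and 0.373 in KO MII libraries and 0.641 and 0.703 in WT MII libraries, so at each stage both KO libraries lay below both WT libraries.

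Uchl1 encodes a deubiquitinating enzyme that also binds and stabilises monoubiquitin, and it was the most abundant of the 5 at GV. It had 5588 and 5511 FPKM in KO GV libraries, against the 11968 and 11523 FPKM in WT GV libraries. Its MI level was 15333 and 15770 FPKM in KO libraries and 10091 and 9807 FPKM in WT libraries. At MII it had 7653 and 7809 FPKM in KO libraries and 2531 and 3048 FPKM in WT libraries. The genotypes did not overlap at any stage, and the order of KO and WT at GV was the opposite of that at MI and MII as deposited. In KO oocytes Uchl1 rose by 1.49 between GV and MI (limma SE 0.0686, log2 scale, adjusted p 2.07e-07) and fell by 1.01 between MI and MII (adjusted p 2.07e-05). With cyclic loess normalization, which removes abundance trends between libraries, the KO change between GV and MI was 0.15 and was not called (adjusted p 0.326). In WT oocytes it fell by 0.24 between GV and MI (adjusted p 0.0293) and by 1.84 between MI and MII (adjusted p 5.65e-08). The WT fall between GV and MI was not called without WT GV replicate 1 (0.155) or 2 (0.0873), or WT MI replicate 1 (0.0768) or 2 (0.123), and it turned to a rise of 0.44 with median scaling (adjusted p 0.00112). The same WT change was a larger fall with cyclic loess normalization, at -0.76 (limma adjusted p 8.81e-05). The MII mean was 1.39 times the GV mean in KO oocytes, whereas in WT oocytes the GV mean was 4.21 times the MII mean.

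Oas1d, the more abundant of the pair of OAS members at every stage, had 1533 and 1888 FPKM in KO GV libraries and 2782 and 3006 FPKM in WT GV libraries. At MI it had 7607 and 7798 FPKM in KO libraries, above the 5670 and 5594 FPKM of WT libraries. At MII it had 6588 and 6866 FPKM in KO libraries, below the 7963 and 7739 FPKM of WT libraries. On the deposited scale the genotypes did not overlap at any stage, and their order changed at each step. With median scaling the KO minus WT difference of Oas1d was negative throughout (GV -0.67, MI -0.52, MII -0.83, log2 scale). The MI difference was 0.084 with quantile and 0.0048 with cyclic loess normalization, neither of them called. The order of KO and WT for Oas1d thus depends on the scale. Between GV and MI Oas1d rose by 2.18 in KO and by 0.96 in WT (limma SE 0.0815, log2 scale, adjusted p 3.58e-08 and 3.20e-05). Between MI and MII it rose by 0.48 in WT (adjusted p 0.00205), and the KO change was -0.20 (adjusted p 0.198). That KO change passed the threshold without KO GV replicate 1 (0.0468) or 2 (0.0465), and its sign turned with median scaling, to 0.39 (adjusted p 0.0521).

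Oas1c, which lies in the same gene cluster on chromosome 5, took another course and ended lowest at MII in both genotypes. It had 954 and 967 FPKM in KO GV libraries and 1715 and 1813 FPKM in WT GV libraries. At MI it had 1514 and 1560 FPKM in KO libraries and 1005 and 1001 FPKM in WT libraries. At MII it had 545 and 630 FPKM in KO libraries and 136 and 131 FPKM in WT libraries. The libraries of the 6 groups did not overlap, and WT MII stood lowest. In KO oocytes Oas1c rose by 0.68 between GV and MI (limma SE 0.0957, log2 scale, adjusted p 9.76e-04) and fell by 1.39 between MI and MII (adjusted p 2.07e-05), and the GV mean was 1.63 times the MII mean. In WT oocytes it fell by 0.81 between GV and MI (adjusted p 2.92e-04) and changed by -2.90 between MI and MII (adjusted p 2.14e-08), so that the GV mean was 13.2 times the MII mean. With median scaling neither change between GV and MI passed the threshold (0.29 in KO, adjusted p 0.117, and -0.14 in WT, adjusted p 0.391), while both falls between MI and MII did (-0.81 in KO, adjusted p 0.00165, and -2.68 in WT, adjusted p 7.14e-08).

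**Figure D2:**
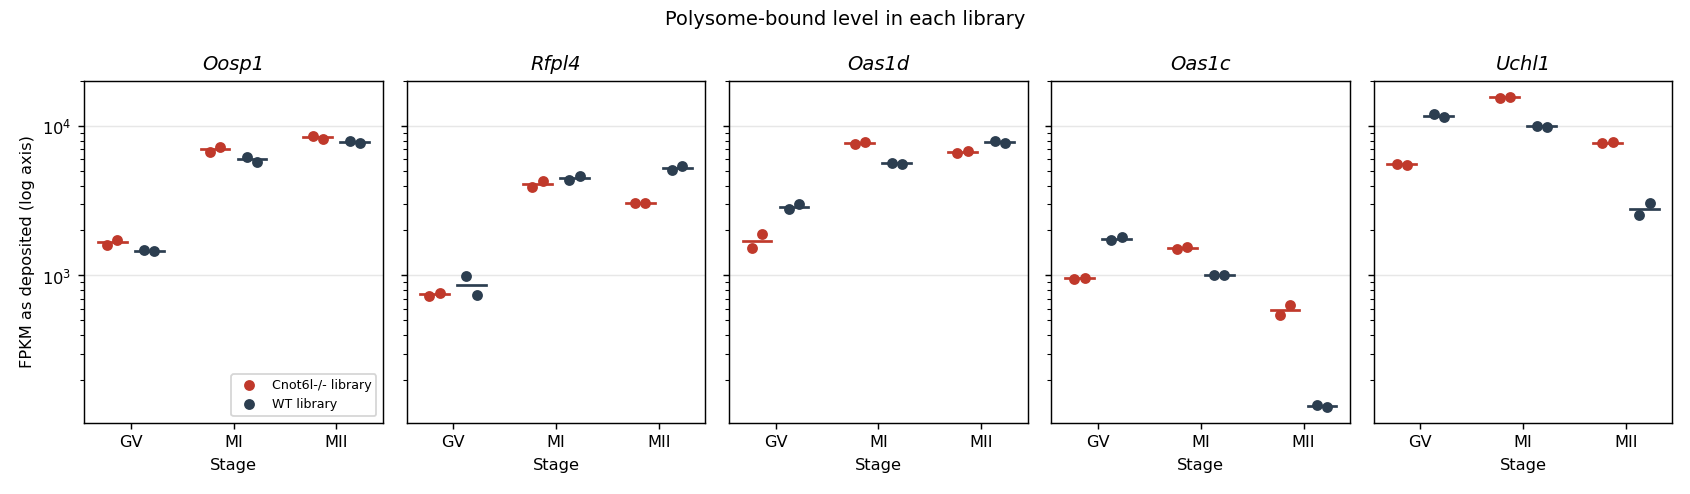
FPKM of each member (log axis) in every library at GV, MI and MII, with KO left of WT at each stage; points are libraries and short bars are the means of 2. Oosp1, Rfpl4 and Oas1d stand higher at MI and MII than at GV in both genotypes, and WT MII is the lowest group for Oas1c (136 and 131 FPKM) and Uchl1 (2531 and 3048 FPKM).

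Over the 12 libraries Oosp1, Rfpl4 and Oas1d ran together, and so did Oas1c and Uchl1. Pearson's r of log2 values was 0.95 between Oosp1 and Rfpl4, 0.93 between Oosp1 and Oas1d, and 0.94 between Rfpl4 and Oas1d. It was 0.90 between Oas1c and Uchl1. Oas1c had r of -0.50 with Oosp1, -0.49 with Rfpl4 and -0.42 with Oas1d. These values describe 12 libraries that share the group structure and the scale of each library, and no test was made.

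Ordered by group means (± SD, n = 2), Oosp1 ran from 8392 ± 252 FPKM in KO MII through 7796 ± 205 in WT MII, 7023 ± 385 in KO MI, 5977 ± 362 in WT MI and 1666 ± 101 in KO GV to 1468 ± 16.0 in WT GV, and no neighbours overlapped. Rfpl4 ran from 5236 ± 208 in WT MII through WT MI, KO MI, KO MII and WT GV to 746 ± 24.2 in KO GV, with overlap between the last pair. Uchl1 ran from 15552 ± 309 in KO MI through WT GV, WT MI, KO MII and KO GV to 2789 ± 365 in WT MII, with no overlap. Oas1d was highest in WT MII (7851 ± 158) and KO MI (7703 ± 135), which overlapped, followed by KO MII, WT MI, WT GV and KO GV (1710 ± 251). Oas1c ran from 1764 ± 69.4 in WT GV through KO MI, WT MI, KO GV and KO MII to 134 ± 3.81 in WT MII, with no overlap.

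In the stage comparisons, 5 of 5 members were called higher at MI than at GV in KO oocytes, where 8.89% of the 11667 tested genes were called higher. With median scaling 4 of 5 were called higher (4.19% of tested genes), Oas1c being the exception. In WT oocytes Oosp1, Rfpl4 and Oas1d were higher at MI than at GV and Oas1c and Uchl1 lower, that is 3 higher against 3.06% of tested genes and 2 lower against 21.7%. With median scaling 4 were higher (6.99%), and Oas1c was not called. Between MI and MII, KO oocytes had 1 member higher (Oosp1, against 0.163% of tested genes) and 2 lower (Oas1c and Uchl1, against 7.18%). With median scaling the same members were called, against 0.84% and 0.677% of tested genes. WT oocytes had 2 members higher at MII than at MI (Oosp1 and Oas1d, against 5.68%) and 2 lower (Oas1c and Uchl1, against 16.4%). With median scaling Rfpl4 was higher as well, making 3 (8.97%), and the 2 stayed lower (14.9%). A fit of the WT MI and WT MII libraries alone called none of these 4 (adjusted p 0.0582 to 0.166), and it called 0% of all tested genes. The MI libraries enter both stage comparisons of a genotype. Both also share libraries with the genotype comparisons below, so the comparisons are not independent of each other.

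At GV, before culture, 3 of 5 members were lower in KO than in WT oocytes, where 1.4% of tested genes were called lower. Uchl1 differed by -1.08 (SE 0.0686, limma adjusted p 1.84e-05), Oas1c by -0.88 (SE 0.0957, adjusted p 0.00107) and Oas1d by -0.77 (SE 0.0815, adjusted p 8.97e-04) on the log2 scale. The 3 were also called lower with median scaling, at -0.99, -0.78 and -0.67 (0.96% of tested genes). Oosp1 differed by 0.18 (adjusted p 0.277) and Rfpl4 by -0.20 (adjusted p 0.653). Oosp1 was called higher in KO under 3 other scalings, at 0.42 to 0.64. In a fit of the GV groups alone none of the 3 passed the threshold (adjusted p 0.0844 for Uchl1, 0.0958 for Oas1c and 0.160 for Oas1d). That fit called 0% of all tested genes. The summed FPKM of cumulus and granulosa markers was also lower in both KO GV libraries than in both WT GV libraries, as given above, while limma called none of the 11 tested markers (2, Inhba and Cyp19a1, had an unadjusted p below 0.05).

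At MI, 4 of 5 members were called higher in KO than in WT oocytes on the deposited scale, where 27.9% of tested genes were called higher. The differences were 0.64 for Uchl1 (limma adjusted p 1.99e-04), 0.62 for Oas1c (adjusted p 0.00174), 0.45 for Oas1d (adjusted p 0.00358) and 0.23 for Oosp1 (adjusted p 0.0209). Each was smaller than the all-gene median of 1.03. With median scaling 4 were called lower (2.46% of tested genes): Rfpl4 by -1.10 (adjusted p 4.80e-04), Oosp1 by -0.73 (adjusted p 1.50e-04), Oas1d by -0.52 (adjusted p 0.00595) and Uchl1 by -0.32 (adjusted p 0.0168). Oas1c was then at -0.35 (adjusted p 0.0701). The direction of Oosp1, Oas1d, Oas1c and Uchl1 at MI thus depends on the scale, and without a standard the files do not settle which applies. The deposited-scale call of Oosp1 was lost without WT MI replicate 2 (0.121) or KO MI replicate 2 (0.157), and in a fit of the MI groups alone (0.0916).

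At MII, Oas1c and Uchl1 were higher and Rfpl4 was lower in KO than in WT oocytes on both scales. Oas1c averaged 587 ± 60.4 FPKM in KO MII libraries and 134 ± 3.81 FPKM in WT MII libraries (SD, n = 2 each), a ratio of 4.39 and a log2 difference of 2.12 (SE 0.0957, limma adjusted p 1.93e-07). Uchl1 averaged 7731 ± 110 FPKM in KO and 2789 ± 365 FPKM in WT, a ratio of 2.77 and a log2 difference of 1.48 (SE 0.0686, adjusted p 2.34e-07). Rfpl4 averaged 3062 ± 2.59 FPKM in KO and 5236 ± 208 FPKM in WT, a ratio of 0.585 and a log2 difference of -0.77 (SE 0.116, adjusted p 7.52e-04). The 2 members higher stood against 25.4% of tested genes and the 1 lower against 3.2%. With median scaling these differences were 1.52 for Oas1c, 0.87 for Uchl1 and -1.38 for Rfpl4. Oosp1 (-0.50, adjusted p 4.29e-04) and Oas1d (-0.83, adjusted p 7.56e-05) were then called lower too, so that 2 members were higher (16.1% of tested genes) and 3 lower (8.31%). As deposited, Oosp1 differed by 0.11 (adjusted p 0.238) and Oas1d by -0.22 (adjusted p 0.0646). The Oas1d difference passed the threshold without KO GV replicate 1 (0.00919) or 2 (0.00915).

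**Figure D3:**
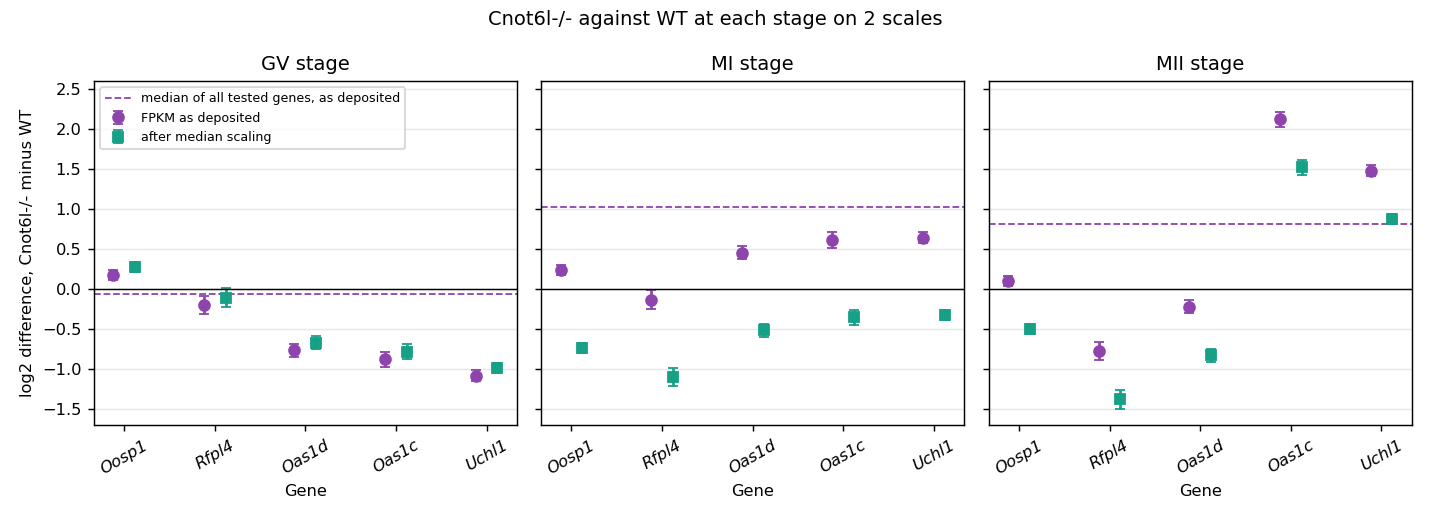
Log2 difference KO minus WT for each member at GV, MI and MII (limma estimate with SE as bars), as deposited and with median scaling; the zero line marks equal levels. At MII Oas1c (2.12 and 1.52) and Uchl1 (1.48 and 0.87) lie above 0 and Rfpl4 (-0.77 and -1.38) below it on both scales, while at MI the scales fall on opposite sides of 0 for 4 members.

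The stage changes themselves differed between genotypes. From GV to MI, the KO change exceeded the WT change by 1.73 for Uchl1 (limma adjusted p 3.73e-06), 1.49 for Oas1c (adjusted p 1.09e-04) and 1.22 for Oas1d (adjusted p 1.29e-04) on the log2 scale. These 3 members stood against 14.4% of tested genes called in that direction, and the all-gene median was 1.13. With median scaling Uchl1 alone stayed called in that direction (0.66, adjusted p 0.00357), against 0.643% of tested genes. Oosp1 (-1.01, adjusted p 3.95e-04) and Rfpl4 (-0.99, adjusted p 0.0144) were then called in the other direction, against 0.926%, although their deposited differences were 0.05 and 0.07 (adjusted p 0.699 and 0.788). From MI to MII, Oas1c (1.51, adjusted p 1.53e-04) and Uchl1 (0.83, adjusted p 7.99e-04) fell less in KO than in WT oocytes, against 2.81% of tested genes. With median scaling both were called too, at 1.87 and 1.19 (4.51% of tested genes). Oas1d (-0.67, adjusted p 0.00693) and Rfpl4 (-0.64, adjusted p 0.0455) differed in the opposite direction, against 3.71% of tested genes, and neither was called with median scaling (adjusted p 0.162 and 0.398). The Rfpl4 call was lost on leaving out any library other than WT GV replicate 1 or 2 (adjusted p 0.0521 to 0.181).

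The OAS members belong to a cluster of Oas1 genes on chromosome 5, and 4 of these genes, Oas1d, Oas1e, Oas1c and Oas1h, carried nearly all of the family's signal. Within a library, the ratio of Oas1d to Oas1c was 1.61 and 1.95 in KO GV libraries and 1.62 and 1.66 in WT GV libraries, which overlapped. It was 5.02 and 5.00 in KO MI libraries and 5.64 and 5.59 in WT MI libraries. It was 12.1 and 10.9 in KO MII libraries and 58.4 and 59.1 in WT MII libraries. The ratio thus overlapped between genotypes at GV and was lower in both KO libraries than in both WT libraries at MI and MII, a difference that a single factor per library leaves as it is. Of the summed FPKM of the 4 genes, Oas1d held 26.1% and 29.2% in KO libraries at GV, then 47.3% and 47.0% at the MI stage, then 62.9% and 62.8% by MII. In WT libraries its share was 26.5% and 26.9% at GV. It was 54.3% and 53.8% at MI and 80.3% and 78.6% at MII. The shares overlapped between genotypes at GV and were lower in both KO libraries at MI and MII.

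Oas1e, the closest to both members by coding sequence among these 4 genes, was lower at MII than at MI but less so than Oas1c. It had 2299 and 2373 FPKM in KO GV and 4114 and 4273 FPKM in WT GV libraries, 5947 and 6163 FPKM in KO MI and 3156 and 3141 FPKM in WT MI libraries, and 2970 and 3091 FPKM in KO MII and 1732 and 1807 FPKM in WT MII libraries. It was lower in KO at GV (-0.84, limma adjusted p 1.84e-05) and higher at MI (0.94, adjusted p 3.43e-06) and MII (0.78, adjusted p 2.57e-06), as deposited, and with median scaling the differences were -0.75 at GV, -0.02 at MI and 0.17 at MII. Oas1h had 1099 and 1236 FPKM in KO GV and 1905 and 2091 FPKM in WT GV libraries, 998 and 1074 FPKM in KO MI and 620 and 667 FPKM in WT MI libraries, and 378 and 353 FPKM in KO MII and 90.7 and 169 FPKM in WT MII libraries. At MII its KO minus WT difference was 1.55 (adjusted p 5.62e-04), and 0.95 with median scaling (adjusted p 0.0100). In KO oocytes its change between GV and MI was -0.17 (adjusted p 0.766), whereas Oas1c was called higher on the deposited scale. The 3′ end of Oas1h (chr5:121323466-121323495, plus strand) resembles the windows given for Oas1d and Oas1c.
Oas1h: tgaggatgaaatttgaagcactgaATTAAA
Oas1d and Oas1h moved in opposite directions between MI and MII in WT oocytes (0.48, limma adjusted p 0.00205, and -2.37, adjusted p 4.14e-05). Whether these windows bear on the changes was not tested.

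**Figure D4:**
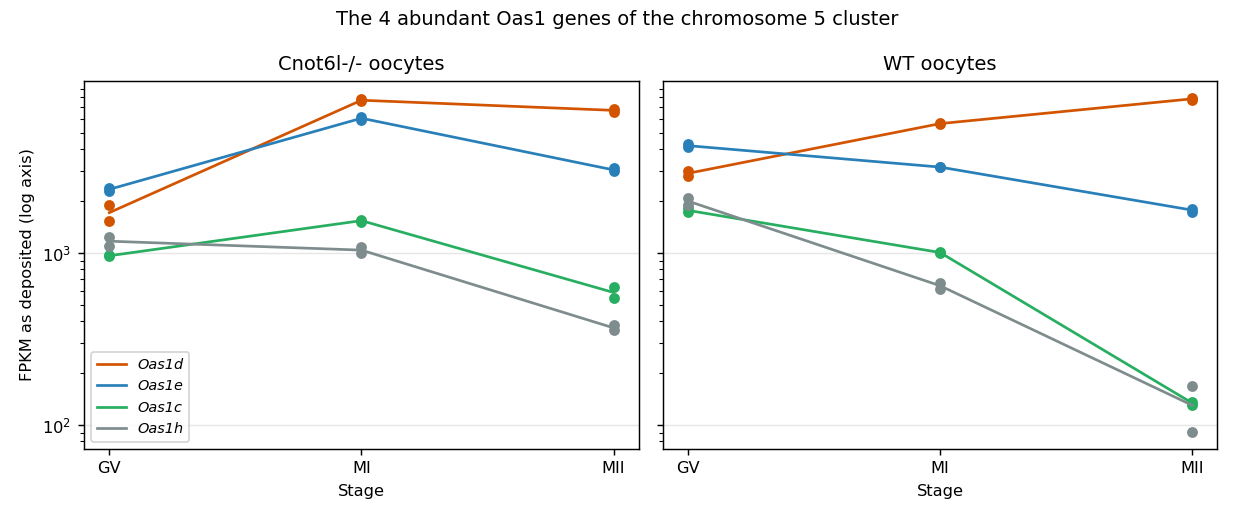
FPKM (log axis) of the 4 abundant Oas1 genes in every library at GV, MI and MII, with KO oocytes in the left panel and WT oocytes in the right. Points are libraries and lines join group means. At MII Oas1d stands at 6588 to 7963 FPKM in all 4 libraries, while Oas1c and Oas1h stand lower in WT (90.7 to 169 FPKM) than in KO (353 to 630 FPKM).

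The other family members were low. Of the OAS family, 7 genes passed the filter and were tested. Oas1f had 68.3 and 68.2 FPKM in KO GV and 97.8 and 80.4 FPKM in WT GV libraries, and fewer in the WT MII libraries (5.64 and 22.3 FPKM). Oas1b stayed at or below 23.2 FPKM and Oasl1 at or below 22.0 FPKM. Oas1a, Oas1g, Oas3 and Oasl2 stayed below 5 FPKM, and Oas2 was listed at 0 in every library. Interferon response genes were mostly low: 4 of 16 passed the filter. Bst2, an interferon-induced membrane protein, was the highest, with 337 and 292 FPKM in KO MII and 113 and 57.2 FPKM in WT MII libraries (log2 difference 1.95, limma adjusted p 5.47e-04). Ifit2, Isg15, Mx2, Rsad2, Usp18 and Ifih1 were listed at 0 in every library. Reads from the Oas1 cluster can match more than 1 gene: 5.24% of the 50-base windows of Oas1d and 10.7% of those of Oas1c also occur in another gene. How such reads were assigned is not given in the sources used here, so the split among Oas1 genes is uncertain. This weighs most on Oas1c in WT MII libraries, where Oas1d was 58.4 and 59.1 times as high, so that a small part of the Oas1d signal is large beside the whole of Oas1c. No window of Oosp1, Rfpl4 or Uchl1 was shared.

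The neighbour of Oosp1 on chromosome 19, Plac1l, is a relative, with 63.8% identity of coding sequence. It had 1604 and 1592 FPKM in KO GV and 1526 and 1569 FPKM in WT GV libraries, close to Oosp1. At MI it had 2557 and 2943 FPKM in KO and 714 and 811 FPKM in WT libraries, and at MII 1124 FPKM in both KO libraries and 499 and 498 FPKM in WT libraries. The ratio of Oosp1 to Plac1l was 0.994 and 1.09 in KO GV and 0.970 and 0.929 in WT GV libraries. It was 2.64 and 2.48 in KO MI and 8.72 and 7.05 in WT MI libraries, and 7.62 and 7.31 in KO MII and 15.9 and 15.4 in WT MII libraries. The ratio thus grew with stage in both genotypes and stood lower in both KO libraries than in both WT libraries at MI and MII. Plac1l was called higher in KO at MI (1.85, limma adjusted p 1.88e-06; 0.88 with median scaling, adjusted p 2.63e-04) and at MII (1.17, adjusted p 7.77e-06; 0.57 with median scaling, adjusted p 0.00101). The third measured gene of this family, Plac1, had 6.27 and 19.2 FPKM in KO MII libraries and was listed at 0 in both WT MII libraries (limma adjusted p 0.0168), and it was not called at GV or MI.

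Of the reported Rfpl4 partners, none was called lower in KO at MII on the deposited scale, where 3.2% of tested genes were. Psmb1, Skp1a and Ube2a were called higher, against 25.4% of tested genes. Psmb1, a proteasome subunit, had 157 and 196 FPKM in KO MII and 14.9 and 14.4 FPKM in WT MII libraries (log2 difference 3.49, limma adjusted p 6.82e-07). Skp1a, a subunit of SCF ubiquitin ligases, had 7471 and 7001 FPKM in KO MII and 1519 and 1363 FPKM in WT MII libraries (2.33, adjusted p 2.57e-09). Ube2a, a ubiquitin-conjugating enzyme, had 85.1 and 83.8 FPKM in KO MII and 36.4 and 16.0 FPKM in WT MII libraries (1.76, adjusted p 0.00601). Ccnb1, cyclin B1, had 3025 and 2934 FPKM in KO MII and 2709 and 2911 FPKM in WT MII libraries (0.09, adjusted p 0.521). With median scaling Ccnb1 was called lower, at -0.52 (adjusted p 0.00184), against 8.31% of tested genes. Psmb1, Skp1a and Ube2a stayed called higher, at 2.92, 1.72 and 1.17, against 16.1%. Rfpl4b, the other RFPL gene of the table, was at or below 2.07 FPKM.

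Among the ubiquitin C-terminal hydrolases, Uchl1 was 3.75 to 48.7 times as high as Uchl3 in every library. Uchl3, a close relative of Uchl1, had 252 and 269 FPKM in KO GV and 246 and 278 FPKM in WT GV libraries, which overlapped. At MI it had 487 and 488 FPKM in KO and 447 and 512 FPKM in WT libraries, and at MII 326 and 395 FPKM in KO and 675 and 758 FPKM in WT libraries. Its difference at MII, -0.99 (limma adjusted p 5.35e-04), had the opposite sign to that of Uchl1. The ratio of Uchl1 to Uchl3 was 22.2 and 20.5 in KO GV and 48.7 and 41.5 in WT GV libraries, 31.5 and 32.3 in KO MI and 22.6 and 19.2 in WT MI libraries, and 23.5 and 19.8 in KO MII and 3.75 and 4.02 in WT MII libraries. The KO libraries thus stayed within 19.8 to 32.3, whereas the WT ratio was lower at each later stage. Uchl5 and Bap1, hydrolases found in large complexes, stayed at or below 54.5 and 100.2 FPKM, and Uchl4 at or below 34.0 FPKM. Of these 3, Uchl4 was called higher in KO at MI as deposited (2.66, adjusted p 0.0312; 1.94 with median scaling, adjusted p 0.266), with 13.8 and 17.8 FPKM in KO and 0 and 5.95 FPKM in WT libraries, and none was called between genotypes at GV or MII.

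The transcripts of ubiquitin itself, the substrate side of Uchl1, were measured too. Ubb, a polyubiquitin gene, had 4713 and 4852 FPKM in KO GV and 9074 and 9233 FPKM in WT GV libraries. It had 6924 and 6789 FPKM in KO MI and 3580 and 3359 FPKM in WT MI libraries, and 2695 and 2633 FPKM in KO MII and 849 and 760 FPKM in WT MII libraries. Ubb was lower in KO at GV (-0.94, limma adjusted p 1.84e-05) and higher at MI (0.98, adjusted p 6.64e-06) and MII (1.73, adjusted p 2.04e-08), as deposited. With median scaling the MI difference was 0.02, and those at GV and MII were -0.84 and 1.12. Of the 5 ubiquitin genes listed, as deposited, 1 was lower in KO at GV (Ubb, against 1.4% of tested genes), 5 were higher at MI (27.9%) and 2 were higher at MII (Rps27a by 3.32 and Ubb, against 25.4%). With median scaling 1 was lower at GV (0.96%), 1 was lower at MI (2.46%) and 2 were higher and 1 lower at MII (16.1% and 8.31%), so the 5 higher at MI rest on the deposited scale.

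The 5 members were also set beside 46 other transcripts known from oocytes, of which 44 were tested. As deposited, between MI and MII in WT oocytes, 2 of the 44 were called higher (Wee2 by 1.11 and Accsl by 0.79, against 5.68% of tested genes) and 29 lower (16.4%), the median being -0.75, whereas the members had 2 higher and 2 lower. With median scaling these counts were 5 higher (8.97%) and 28 lower (14.9%). Between GV and MI in WT oocytes 21 were higher (3.06%) and 10 lower (21.7%), with a median of 0.21, against a median of 0.96 for the members and -0.87 for all genes. With median scaling 30 were higher (6.99%) and 4 lower (7.62%). In KO oocytes 34 were higher at MI than at GV (8.89%) and none was called lower (1.35%) as deposited, and 30 higher (4.19%) and 1 lower (2.32%) with median scaling. Between genotypes at MII, 33 were higher in KO (25.4%) and none was called lower (3.2%) as deposited, and 25 were higher (16.1%) and 9 lower (8.31%) with median scaling. Ooep and E330017A01Rik differed most, at 3.31 and 3.29. At MI 32 were higher in KO (27.9%) and 2 lower (H1foo by -0.25 and Tcl1 by -0.17, against 0.463%) as deposited. With median scaling 3 were higher at MI (2.16%) and 17 lower (2.46%), so the direction at MI turned with the scale. At GV 1 was higher (Btg4 by 0.26, against 0.163%) and 16 lower (1.4%) as deposited, and 3 were higher (0.197%) and 12 lower (0.96%) with median scaling. No difference between the members and this list was tested.

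The genes whose log2 values ran most closely with each member over the 12 libraries were sought among 4712 genes. For Oosp1 these were Tcl1b2, Ccndbp1 and Mob4, each with Pearson's r of 0.99. For Rfpl4 they were Magoh (r 0.98), Spp1 (0.98) and Mos (0.97), the kinase that keeps the MII oocyte arrested. Mos averaged 2091 FPKM in KO MII and 2163 FPKM in WT MII libraries, and 870 FPKM in KO GV and 850 FPKM in WT GV libraries. For Oas1d they were Lrrc57, Pcna and Astl, each with r of 0.98, of which Astl encodes the protease ovastacin. For Uchl1 they were Rsl24d1, Cfl1 and Mtx2, each with r of 0.98. For Oas1c they were Fbxw15 (r 0.99), an oocyte F-box gene, Pabpc1l (0.99), an oocyte poly(A)-binding protein gene, and Calr (0.98). Fbxw15 averaged 1195 FPKM in KO MII and 317 FPKM in WT MII libraries, and 1731 FPKM in KO GV and 2641 FPKM in WT GV libraries. These are descriptions over libraries that share groups and scale, with no test.

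RefSeq promoters (GRCm38.p6, a short stretch around the start of the gene) were at hand for Oosp1, Rfpl4, Oas1c and Uchl1. Searched on both strands, CANNTG was found in those of Oosp1 and Rfpl4 and in 72.1% of 27025 promoters, and TAATTG in none of the 4 and in 8.15% of promoters. TATAAA, searched on the strand of the gene, was found in that of Rfpl4 and in 8.88% of promoters. On chromosome 5 of the build of the files, Uchl1 (chr5:67067360-67078473) lies 29.4 Mb from Cnot6l, and Oas1c (chr5:121250208-121262523) and Oas1d (chr5:121364827-121371656) lie 24.7 Mb and 24.8 Mb from it. Oosp1 lies at chr19:11741950-11765541 and Rfpl4 at chr7:5061389-5068513.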

How the data were processed

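Polysome-bound RNA of mouse oocytes was measured in 12 libraries. Per the labels' protocols, Tn5 transposase was used on 500 pg of cDNA that had been amplified. The authors deposited FPKM values for 23235 genes, both as a series-wide table and library by library. Both held the same values (largest difference 0), and no per-sample column was left unused. Cufflinks 2.2.1, TopHat2 2.0.11, CASAVA 1.8, Bowtie2 2.1.0 and the mm9 build are named, with no role or order, per the submitters' processing notes. The annotation, filters, factor behind each library's total, read depth and strandedness were not given in the sources used here, so precision is judged from replicates alone. Pearson's r between replicates, across genes on the log2 scale, was 0.865 to 0.949.

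Values were analysed as log2(FPKM + 1), so fold changes of low genes are understated. Group means (6) were fitted with limma 3.58.1 (R 4.3.3) over the 11667 genes whose mean FPKM was 1 or more (residual df 6, prior df 4.27, abundance trend), and was tested on simulated data. Calls have a Benjamini-Hochberg adjusted p below 0.05 over all genes tested, 2-sided. The fit gives 1 spread per gene to all groups. Replicate numbers were not treated as pairs, since the labels do not say that they mark a shared animal or day. Median scaling used genes whose mean FPKM was 10 or more and that were above 0 in all 12 libraries.

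The members, gene lists and tests were chosen with earlier results of these data known. Named genes are the 5 members, every measured gene of their families and reported partners, up to 4 called genes with the largest change of other lists, and, per member, the 3 genes with the highest Pearson's r among genes whose mean FPKM was 20 or more. Wee2, Accsl, H1foo, Tcl1 and Btg4 were named after their values were seen, as the few genes behind a small count. Oosp2, Oosp3 and Khdc3 were listed but not found by symbol. A gene of 1 list is not reported here. Sequences come from NCBIM37 with GENCODE release M1, the build of the files, and promoters from RefSeq (GRCm38.p6). Alternatives tried were no filter, a pseudocount of 0.1, rescaling to a common total (TPM), median scaling, quantile and cyclic loess normalization, a fit of the compared groups alone, a replicate block, and leaving out each library in turn.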

Additional observations from a re-analysis of the deposited data

Results flagged for a closer look

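The change between stages differed between genotypes, by an interaction test in limma, for 3 members from GV to MI and for 4 from MI to MII. Of all tested genes, 14.7% and 6.52% were called at these steps as deposited, in either direction. From GV to MI the KO change minus the WT change was 1.73 for Uchl1, 1.49 for Oas1c and 1.22 for Oas1d on the log2 scale. The all-gene median was 1.13. From MI to MII it was 1.51 for Oas1c and 0.83 for Uchl1, both of which fell in each genotype and fell less in KO. It was -0.67 for Oas1d and -0.64 for Rfpl4, and the all-gene median was -0.25. Of these 7 results, those of Uchl1 at both steps and of Oas1c from MI to MII were also called with median scaling, at 0.66, 1.19 and 1.87. In that direction, median scaling called 0.643% of tested genes from GV to MI and 4.51% from MI to MII.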

How the results depend on the processing

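Of the 45 member results, 34 were called as deposited, and 14 of these kept their sign and their call under every alternative run. The share of all tested genes called as deposited ran from 1.56% to 28.6%, depending on the comparison. How many calls of all genes held under every run was not counted, so the 14 have no all-gene share beside them. These 14 are the rises of Oosp1, Rfpl4 and Oas1d between GV and MI in both genotypes, the falls of Oas1c and Uchl1 between MI and MII in KO, the differences of Oas1c, Uchl1 and Rfpl4 between KO and WT at MII, and the genotype differences of Uchl1 at both steps and of Oas1c from MI to MII. The fit of the compared groups alone called 0% of all tested genes for KO minus WT at GV and for WT MII minus MI. No result of either comparison was thus among the 14, whatever its size. In WT MII minus MI, Oas1c (-2.90) and Uchl1 (-1.84) lost their call in that fit only (limma adjusted p 0.0582 and 0.0622). For these comparisons, absence from the 14 does not measure how firm a result is. The scale of a library was the choice that turned most signs. Of 45 reversals, 39 came from scaling and 6 from leaving out a library. The cause of these reversals was not tested. The share of all genes called varied too, for KO minus WT at MI from 28.4% as deposited to 3.33% with quantile normalization. The depth in reads is unknown, and 2 libraries a group limit every test.

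Counts of members called moved as follows. In a fit of the compared groups alone, 0 were called for KO minus WT at GV and 0 for WT MII minus MI. In both, 0% of all tested genes were called. The percentages that follow are the shares of all tested genes called in either direction. For KO minus WT at MI the count was 4 as deposited, all higher in KO (28.4%). It was 2 with TPM, both lower (5.55%), and 1 with cyclic loess normalization, lower (3.43%). With quantile normalization it was 1, higher (3.33%). For KO minus WT at MII it was 5 with TPM (24.0%), 5 with median scaling (24.4%) and 5 with cyclic loess (21.1%). Each time 2 were higher and 3 lower. The count was 3 with cyclic loess for KO MI minus GV, all higher (6.09%). It was 2 with median scaling for the genotype difference from MI to MII, both higher (6.24%). Leaving out 1 library gave 2 to 5 members called over all comparisons.

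Signs turned as follows, in the order TPM, median scaling, quantile and cyclic loess where all are given. For KO minus WT at MI, Oosp1 was -0.42, -0.73, -0.23 and -0.23, and Oas1c was -0.033, -0.35, -0.090 and -0.095. With TPM and median scaling, Oas1d was -0.20 and -0.52, and Uchl1 -0.0047 and -0.32. For KO minus WT at MII, Oosp1 was -0.35, -0.50, -0.22 and -0.48. For KO minus WT at GV, Rfpl4 was 0.043 with TPM, 0.0069 with quantile and 0.17 with cyclic loess. For KO MI minus GV, Oas1c was -0.13 with cyclic loess. For KO MII minus MI, with TPM, median scaling and cyclic loess, Rfpl4 was 0.022, 0.16 and 0.042, and Oas1d was 0.25, 0.39 and 0.20. For WT MI minus GV, Uchl1 was 0.028 with TPM and 0.44 with median scaling. For the genotype difference from GV to MI, Oosp1 was -0.84, -1.01, -0.87 and -0.82, and Rfpl4 was -0.82, -0.99, -0.51 and -0.85. From MI to MII, Oosp1 was 0.071 with TPM, 0.23 with median scaling and 0.0099 with quantile. Leaving out 1 library gave Rfpl4 -0.42 to 0.016 for KO minus WT at GV, and for the genotype difference from GV to MI it gave Oosp1 -0.0100 to 0.11 and Rfpl4 -0.15 to 0.29.

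Replicate 1 minus replicate 2 differences correlated between groups by -0.03 to 0.05 (median 0.01, 15 pairs of groups), so the numbers were not taken as pairs. With the replicate block, Oas1d at MII was called (-0.22, adjusted p 0.0485), Rfpl4 for the genotype difference from MI to MII was not (-0.64, adjusted p 0.0605), and no other member call changed.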

Other observations

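Uchl1, Oas1c and Oas1d, the 3 members lower in KO at GV, lie on chromosome 5, as does Cnot6l. Of the 797 genes tested on chromosome 5, 16 were called lower in KO at GV (limma, as deposited), which is 2.01%, against 1.4% of all tested genes. Chromosomes 9 (3.15%), 6 (2.27%) and 14 (2.03%) had higher shares, and the median log2 difference on chromosome 5 was -0.03, against -0.06 for all genes. The 16 include these 3 members. Shares of whole chromosomes do not describe the region around Cnot6l, and a part of position in the members' differences was not tested. This comparison was chosen after the members' values were seen, and no test was made.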
